A study of Oryza sativa with 28 samples.

Results

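The rice line Wuxiang S (WXS) is a thermosensitive genic male sterile line that sets fertile pollen under cool conditions and fails to under warm ones. Its fertile and sterile panicles differed in expression at meiosis and at the uninucleate microspore stage, and in 2606 of 26392 genes tested the size or direction of that difference depended on the stage. These 2606 genes, 9.87% of the genes tested, were chosen by a test of the interaction between type and stage over all genes, and no gene was picked by its function. The count table held 47919 genes, of which 26392 had enough reads to be tested. Counts per gene were measured by strand-specific RNA-seq of rRNA-depleted RNA from whole young panicles in 12 libraries, 3 for each of the groups FP3, SP3, FP4 and SP4, with 30577833 to 51193158 counts per library.

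FP3 and FP4 were panicles of WXS(F), the fertile plants, at P3 (the meiosis period) and P4 (the uninucleate period). These plants were moved to growth chambers when the panicle was about 1 cm long and were kept at a mean of 22 °C with 14 h of light, 10 h of dark and 77% relative humidity. SP3 and SP4 were panicles of WXS(S), the sterile plants, at the same periods. These plants stayed in a summer paddy field at the restrictive temperature, above 22 °C, with the same hours of light. Both types were 1 indica line and carried the same tms5 mutant allele, and type and growing conditions cannot be told apart. P3 and P4 were assigned from the anthers, and the position of the FP3 and SP3 panicles within meiosis was not tested here. A whole panicle holds anthers, pistils, glumes and branch tissue, and in such a sample fewer cells of a type and less RNA per cell cannot be told apart.

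In the rice anther, pollen mother cells pass through meiosis, and the 4 haploid products are released as microspores with a single nucleus. The tapetum, the innermost wall layer, feeds them and secretes the lipid and phenolic precursors of the pollen wall, and then degrades. The gene tms5 encodes an RNase Z that cuts the mRNAs of the ubiquitin fusion ribosomal protein genes Ub_L40, and tms5 mutants are sterile at high temperature.

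For each gene the difference between the types at a stage was expressed as the log2 fold change of WXS(F) over WXS(S), and the interaction was the difference at P4 minus the difference at P3. A positive interaction thus means that WXS(F) stood higher relative to WXS(S) at P4 than at P3. A gene was called at a Benjamini-Hochberg adjusted p below 0.05 in edgeR's quasi-likelihood test and an absolute log2 value above 1. By this rule 860 genes, 3.26% of those tested, were relatively higher in WXS(F) at P4, and 1746 genes, 6.62%, were relatively lower. Fits of limma to log2(FPKM + 1) called 621 and 735 genes, and to log2(FPKM + 0.1) 1693 and 1668 genes, so that the share of calls in the higher direction was 45.8% and 50.4% there and 33% here. In the same model 4014 genes (15.2%) were higher and 1823 (6.91%) lower in FP3 than in SP3. At P4 the numbers were 3679 (13.9%) higher and 1747 (6.62%) lower in FP4 than in SP4.

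The called genes fell into 6 kinds by their calls at the separate stages. A difference was lost in 761 genes, called at P3 but not at P4, of which 550 were higher and 211 lower in FP3 than in SP3. A difference was gained in 681 genes, called at P4 but not at P3, of which 345 were higher and 336 lower in FP4 than in SP4. In 497 genes the types differed in the same direction at both stages but less at P4, and 489 of these narrowed differences were higher in WXS(F). In 229 genes the difference widened, with 110 higher and 119 lower in WXS(F). The sign reversed with a call at both stages in 89 genes, to higher in WXS(F) at P4 in 44 and to lower in 45. The remaining 349 genes were called by the interaction and at neither stage, where a gene could miss the call by the fold threshold alone. Their stage medians had opposite signs. In the 142 with a higher interaction the median log2 fold change was -0.63 at P3 and 0.67 at P4. In the 207 with a lower one it was 0.68 and -0.64.

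These kinds rest on thresholds, and a gene that missed the call at a stage may still have differed there. Among the gained genes, 201 of the 345 higher and 191 of the 336 lower lay within 0.5 on the log2 scale of no difference at P3. Among the lost genes, 320 of the 550 higher and 117 of the 211 lower lay within 0.5 of no difference at P4. The median log2 fold change of the lost higher genes was 1.93 at P3 and 0.08 at P4, and that of the gained higher genes was -0.02 at P3 and 2.07 at P4. The narrowed higher genes had the highest median at P3, 4.70, and kept a median of 2.38 at P4.

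**Figure D1:**
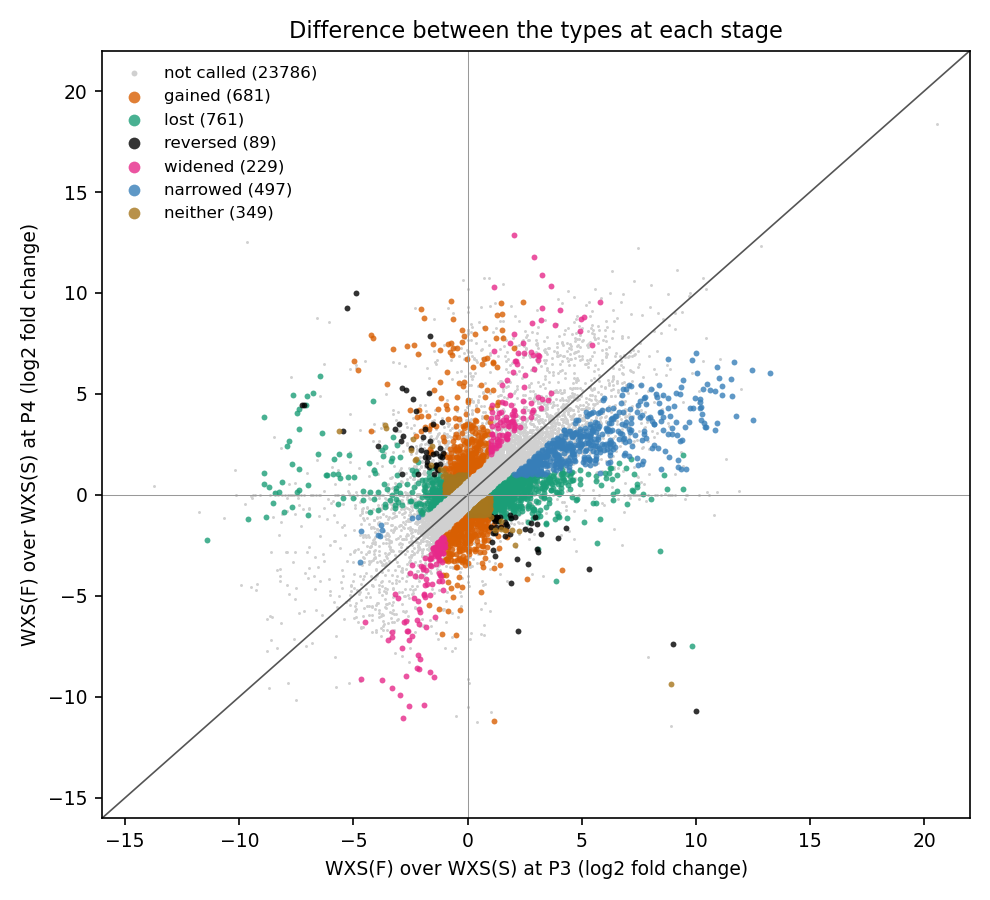
Log2 fold change of WXS(F) over WXS(S) at P3 (horizontal) and at P4 (vertical) for the 26392 genes tested, 1 point a gene, coloured by the kind of interaction with the number of genes in brackets. Points on the diagonal line have the same difference at both stages. Of the 497 narrowed genes, the 489 higher in WXS(F) form a wedge on the right between the diagonal and the horizontal zero line. The 761 lost genes lie along that zero line.

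To find the group behind each interaction, the mean log2 CPM (counts scaled to the library total) of each group was compared with the mean of the other 3. Of the 1746 genes with a lower interaction, SP3 was the farthest group in 1033 genes (59.2%) by being low. FP4 stood apart by being low in 309 of them, SP4 by being high in 252, and FP3 by being high in 147. Of the 860 genes with a higher interaction, FP4 stood apart by being high in 420 (48.8%), SP3 by being high in 167, SP4 by being low in 148 and FP3 by being low in 125. Over all genes tested, called or not, SP3 was the farthest group most often, by being low in 20.5% and high in 18.8%. The shares over all genes were 15.6% for a high and 14.1% for a low FP4. They were 8.05% and 7.69% for SP4, and 8.36% and 6.94% for FP3. The sign of the interaction fixes most of the choice, since a lower one favours a low SP3 or FP4 and a high FP3 or SP4 and a higher one the opposite, so these counts only describe the called genes. SP3 was also the group whose replicates differed most, with a median SD of 0.279 log2 CPM over the genes tested, against 0.140 in FP3, 0.137 in FP4 and 0.159 in SP4.

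**Figure D2:**
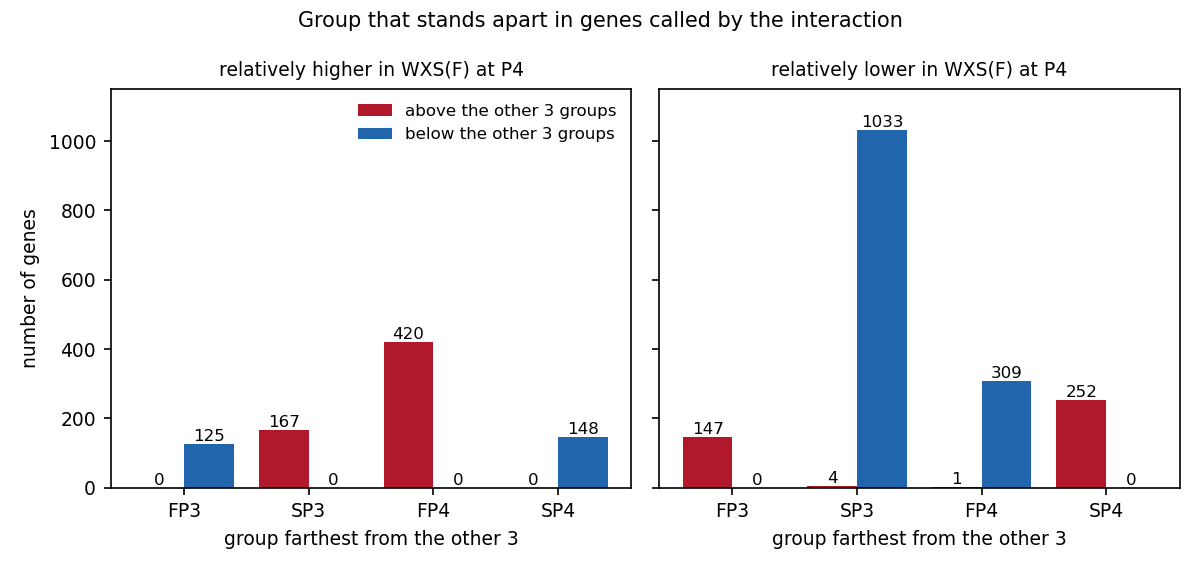
Number of genes called by the interaction in which each group lay farthest from the other 3, above them (red) or below them (blue), for the 860 genes relatively higher in WXS(F) at P4 (left) and the 1746 relatively lower (right). The tallest bars are FP4 above the others on the left, with 420 genes, and SP3 below the others on the right, with 1033.

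Most heat shock protein genes differed between the types more at P3 than at P4. Heat shock proteins are chaperones that keep other proteins folded, and heat shock factors are a family of transcription factors that includes activators of their genes. Of 15 heat shock protein genes tested from a list of 16, 11 had a lower interaction and 1 a higher one. The share called was 80%, against 9.87% of all genes tested, and the median interaction was -2.60, against -0.02 over all genes tested. This list and those below were chosen with earlier results of these data known, so their counts and medians are not independent evidence. At P3, 11 of the 15 were higher in FP3 than in SP3 and none was lower, with a median log2 fold change of 3.18. At P4, 4 were higher and 1 was lower in FP4 than in SP4, with a median of 0.05. For the stage counts of this list and those below, the shares over all genes tested were 15.2% higher and 6.91% lower at P3. At P4 they were 13.9% higher and 6.62% lower. In SP3 the sum over the list was lowest, at 39.8 to 55.1 FPKM (fragments per kilobase of gene, scaled to library size), against 187 to 199 FPKM in FP3, and at P4 it was 192 to 208 FPKM in FP4, against 95.6 to 106 FPKM in SP4.

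HSP18.0 (LOC_Os01g08860), a class II small heat shock protein, had 31.6, 28.7 and 33.3 CPM in FP3, against 2.54, 2.52 and 2.92 CPM in SP3, and 11.9, 14.2 and 14.3 CPM in FP4, against 13.97, 16.97 and 15.1 CPM in SP4. Its levels at P4 overlapped between the types, while at P3 all FP3 libraries lay above all SP3 libraries, and its interaction was -3.74 (SE 0.168, adjusted p = 3.43e-07, edgeR). The disaggregase gene HSP101 (LOC_Os05g44340) had 188, 197 and 212 CPM in FP3, against 78.2, 89.6 and 98.04 CPM in SP3, and 112, 105 and 108 CPM in FP4, against 102, 101 and 110.4 CPM in SP4. Its log2 fold change was 1.17 at P3 and 0.05 at P4, an interaction of -1.11 (SE 0.118, adjusted p = 0.000111, edgeR). The small heat shock protein gene HSP26.7 (LOC_Os03g14180) had 5.51, 4.999 and 5.55 CPM in FP3, against 0.2103, 0.367 and 0.497 CPM in SP3, and 1.31, 1.36 and 1.66 CPM in FP4, against 2.75, 2.68 and 2.6004 CPM in SP4, an interaction of -4.80 (SE 0.375, adjusted p = 1.39e-05, edgeR). Its SP3 libraries were the lowest of the 12, and at P4 the FP4 libraries lay below those of SP4. The reversal of the list was HSP23.2 (LOC_Os04g36750), with 3.27, 4.63 and 4.07 CPM in FP3, against 0.147, 0.259 and 0.187 CPM in SP3, and 0.321, 0.5002 and 0.408 CPM in FP4, against 1.403, 0.904 and 1.503 CPM in SP4. Its 3 FP3 libraries stood above all others, its SP4 libraries lay above its FP4 libraries, and its interaction was -5.94 (SE 0.452, adjusted p = 1.2e-05, edgeR).

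Among loci that were placed in the list but are given here by ID, LOC_Os04g01740 had 93.03, 90.1 and 93.3 CPM in FP3, against 4.96, 6.21 and 5.22 CPM in SP3, and 29.8, 29.4 and 31.6 CPM in FP4, against 24.1, 23.2 and 24.1 CPM in SP4. The types still differed slightly at P4, with log2 fold changes of 4.07 at P3 and 0.35 at P4, and the interaction was -3.72 (SE 0.1203, adjusted p = 7.17e-08, edgeR). LOC_Os02g52150 narrowed in the same way, with log2 fold changes of 3.73 at P3 and 1.27 at P4.

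Heat shock factor genes were split. Of 9 tested, 3 had a lower and 1 a higher interaction, or 44.4% called, against 9.87% of all genes tested. The median was -0.83, and 5 were higher in WXS(F) at P3 and 4 at P4. HSFA2a (LOC_Os03g53340), an activator of the heat response, had 22.9, 15.3 and 18.6 CPM in FP3, against 0.336, 0.173 and 0.249 CPM in SP3, and 13.1, 14.5 and 14.8 CPM in FP4, against 2.08, 2.795 and 2.31 CPM in SP4. Its SP3 libraries were at most 0.336 CPM, and the difference narrowed but was still called at P4, with log2 fold changes of 6.21 and 2.56 and an interaction of -3.65 (SE 0.315, adjusted p = 2.61e-05, edgeR). By limma on log2(FPKM + 1) its interaction was -0.98 (adjusted p = 0.0033), under the fold threshold and so not called. The cause of this difference between the fits was not tested. HSFC1b (LOC_Os01g53220) went the other way, with 27.02, 22.3 and 24.2 CPM in FP3, against 9.93, 13.3 and 6.62 CPM in SP3, and 15.1, 16.8 and 16.8 CPM in FP4, against 1.54, 1.496 and 1.31 CPM in SP4. SP4 stood apart by being low, and the interaction was 2.19 (SE 0.298, adjusted p = 0.00059, edgeR). LOC_Os08g43334 and LOC_Os09g35790 of the same list had interactions of -1.74 and -1.91, both with SP3 as the low group.

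Genes for pollen wall and anther lipid synthesis had higher interactions more often than lower ones. Of 14 tested from a list of 15, 7 had a higher and 4 a lower interaction. That was 78.6% of those tested, against 9.87% of all genes tested, and the median interaction was 1.62. In 1 of the 14 a group had 0 counts, and putting such groups at 3 counts left this median at 1.62 and that of all genes tested at -0.01. At P3, 11 of the 14 were higher in FP3 than in SP3 and none was lower. At P4, 8 were higher and 1 was lower in FP4 than in SP4. The sum over the list was 1187 to 1296 FPKM in FP4, against 268 to 291 FPKM in SP4, and 102 to 119 FPKM in FP3, against 32.4 to 43.4 FPKM in SP3. Both types thus had higher sums at P4 than at P3.

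CYP704B2 (LOC_Os03g07250), a cytochrome P450 that hydroxylates fatty acids for sporopollenin and cutin, had 27.7, 25.9 and 21.1 CPM in FP3, against 13.4, 10.8 and 11.3 CPM in SP3, and 331, 340.1 and 336 CPM in FP4, against 19.9, 18.6 and 19.1 CPM in SP4. The FP4 libraries lay far above all others, and the interaction was 3.05 (SE 0.147, adjusted p = 6.24e-07, edgeR). CYP703A3 (LOC_Os08g03682), another fatty acid hydroxylase of the pollen wall, had 37.2, 34.3 and 35.6 CPM in FP3, against 11.5, 7.7002 and 9.11 CPM in SP3, and 249.9, 262 and 256 CPM in FP4, against 10.9, 12.6 and 11.2 CPM in SP4, an interaction of 2.55 (SE 0.172, adjusted p = 5.13e-06, edgeR). PKS1 (LOC_Os10g34360), a polyketide synthase of sporopollenin synthesis, had 46.1, 42.1 and 37.05 CPM in FP3, against 4.82, 5.61 and 4.07 CPM in SP3, and 416, 429.7 and 416 CPM in FP4, against 15.7, 14.03 and 14.6 CPM in SP4. Its difference was large at both stages and larger at P4, with an interaction of 1.73 (SE 0.155, adjusted p = 3.26e-05, edgeR). C6 (LOC_Os11g37280), a lipid transfer protein that carries wall lipids out of the tapetum, had 32.8, 33.3 and 32.97 CPM in FP3, against 0.526, 0.776 and 2.14 CPM in SP3, and 894, 964 and 989.6 CPM in FP4, against 3.25, 3.61 and 3.32 CPM in SP4. All FP4 libraries were at 894 CPM or more while the highest SP4 library was at 3.61 CPM, and its interaction was 3.21 (SE 0.469, adjusted p = 0.000922, edgeR).

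Other genes of the same route moved in the opposite direction. PKS2 (LOC_Os07g22850), the second polyketide synthase, had 12.8, 11.2 and 10.8 CPM in FP3, against 1.64, 1.36 and 1.18 CPM in SP3, and 60.6, 62.3 and 67.6 CPM in FP4, against 181, 158 and 179 CPM in SP4. All FP3 libraries were above all SP3 libraries and all FP4 libraries below all SP4 libraries, and the interaction was -4.48 (SE 0.161, adjusted p = 9.88e-08, edgeR). ACOS12 (LOC_Os04g24530), an acyl-CoA synthetase that activates the fatty acids, had 43.6, 44.6 and 48.8 CPM in FP3, against 6.08, 7.83 and 5.63 CPM in SP3, and 221, 209 and 206 CPM in FP4, against 372, 376 and 419 CPM in SP4. Its difference of 2.81 at P3 turned to -0.88 at P4 on the log2 scale, short of the 2-fold threshold, and the interaction was -3.68 (SE 0.157, adjusted p = 2.59e-07, edgeR). The genes of the sporopollenin route therefore did not share a direction at P4, although the named ones were all higher in FP3 than in SP3.

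Regulators and products of the tapetum included genes of each direction. Of 8 tapetum transcription factor genes, 1 had a higher and 1 a lower interaction, or 25% called, against 9.87% of all genes tested. MYB80 (LOC_Os04g39470), a MYB factor needed for tapetum function and exine formation, had 3.37, 4.098 and 3.39 CPM in FP3, against 0.736, 0.496 and 0.311 CPM in SP3, and 7.79, 7.66 and 7.26 CPM in FP4, against 19.7, 19.2 and 20.2 CPM in SP4. It was higher in WXS(F) at P3 and higher in WXS(S) at P4, without overlap at either stage, and the interaction was -4.16 (SE 0.315, adjusted p = 1.15e-05, edgeR). EAT1 (LOC_Os04g51070), a bHLH factor of tapetal cell death, had 13.4, 11.5 and 9.81 CPM in FP3, against 37.9, 14.9 and 34.8 CPM in SP3, and 43.96, 38.8 and 35.4 CPM in FP4, against 26.8, 21.8 and 18.9 CPM in SP4. At P3 WXS(F) was lower, and at P4 its log2 fold change of 0.81 did not reach the fold threshold, so that the interaction was 2.14 (SE 0.411, adjusted p = 0.00455, edgeR). The sums over this list were higher in WXS(S) at both stages, at 24.3 to 29.9 FPKM in FP3, against 42.2 to 61.3 FPKM in SP3, and at 39.1 to 44.0 FPKM in FP4, against 83.6 to 92.6 FPKM in SP4.

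Of 5 tapetal protease and secreted protein genes, 1 had a higher and 2 a lower interaction. The share called was 60%, against 9.87% of all genes tested. C4 (LOC_Os08g43290), an anther lipid transfer protein, had 13.3, 14.1 and 16.3 CPM in FP3, against 2.38, 3.06 and 2.52 CPM in SP3, and 159.9, 179.5 and 174 CPM in FP4, against 173, 184 and 191 CPM in SP4. The types differed at P3 and overlapped at P4, with an interaction of -2.55 (SE 0.147, adjusted p = 2.04e-06, edgeR). LOC_Os02g28970 had 0.951, 0.579 and 1.43 CPM in FP3, against 1.66, 1.06 and 1.896 CPM in SP3, and 0.197, 0.659 and 0.159 CPM in FP4, against 8.36, 13.5 and 12.3 CPM in SP4, so that SP4 alone was high, and its interaction was -4.41 (SE 0.715, adjusted p = 0.00176, edgeR). CP1 (LOC_Os04g57490), a cysteine protease of the anther, was at 3.27 CPM or less in every library and had 0.634, 0.472 and 0.725 CPM in FP3, against 0.379, 0.108 and 0.249 CPM in SP3, and 2.34, 2.64 and 3.27 CPM in FP4, against 0, 0.141 and 0.215 CPM in SP4. Its interaction of 3.17 (SE 0.971, adjusted p = 0.0427, edgeR) was lost in 8 of the fits that left out a library, for example without FP3 replicate 1 (3.22, adjusted p = 0.0823) and without SP3 replicate 1 (2.62, adjusted p = 0.119). It was also lost with a replicate block (3.24, adjusted p = 0.0649), without TMM (adjusted p = 0.0561), without the filter on low counts (3.14, adjusted p = 0.0592) and by limma on log2(FPKM + 1) (0.76).

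Of 9 cellulose synthase genes tested, 2 had a higher interaction and none a lower one, or 22.2% called, against 9.87% of all genes tested. Both called genes encode subunits known to make the secondary wall. CESA4 (LOC_Os01g54620) had 16.9, 16.7 and 18.7 CPM in FP3, against 8.202, 8.56 and 10.2 CPM in SP3, and 558, 501 and 531 CPM in FP4, against 47.8, 40.3 and 43.4 CPM in SP4. The log2 fold change was 0.96 at P3 and 3.60 at P4, and the interaction was 2.64 (SE 0.135, adjusted p = 8.78e-07, edgeR). CESA7 (LOC_Os10g32980) had 5.73, 6.54 and 5.34 CPM in FP3, against 1.58, 1.51 and 1.99 CPM in SP3, and 186, 183 and 197 CPM in FP4, against 18.5, 16.2 and 18.2 CPM in SP4, an interaction of 1.61 (SE 0.155, adjusted p = 5.47e-05, edgeR). In both genes all libraries of P4 lay above all libraries of P3, in WXS(F) and in WXS(S), and how many of all genes tested did so was not counted.

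**Figure D3:**
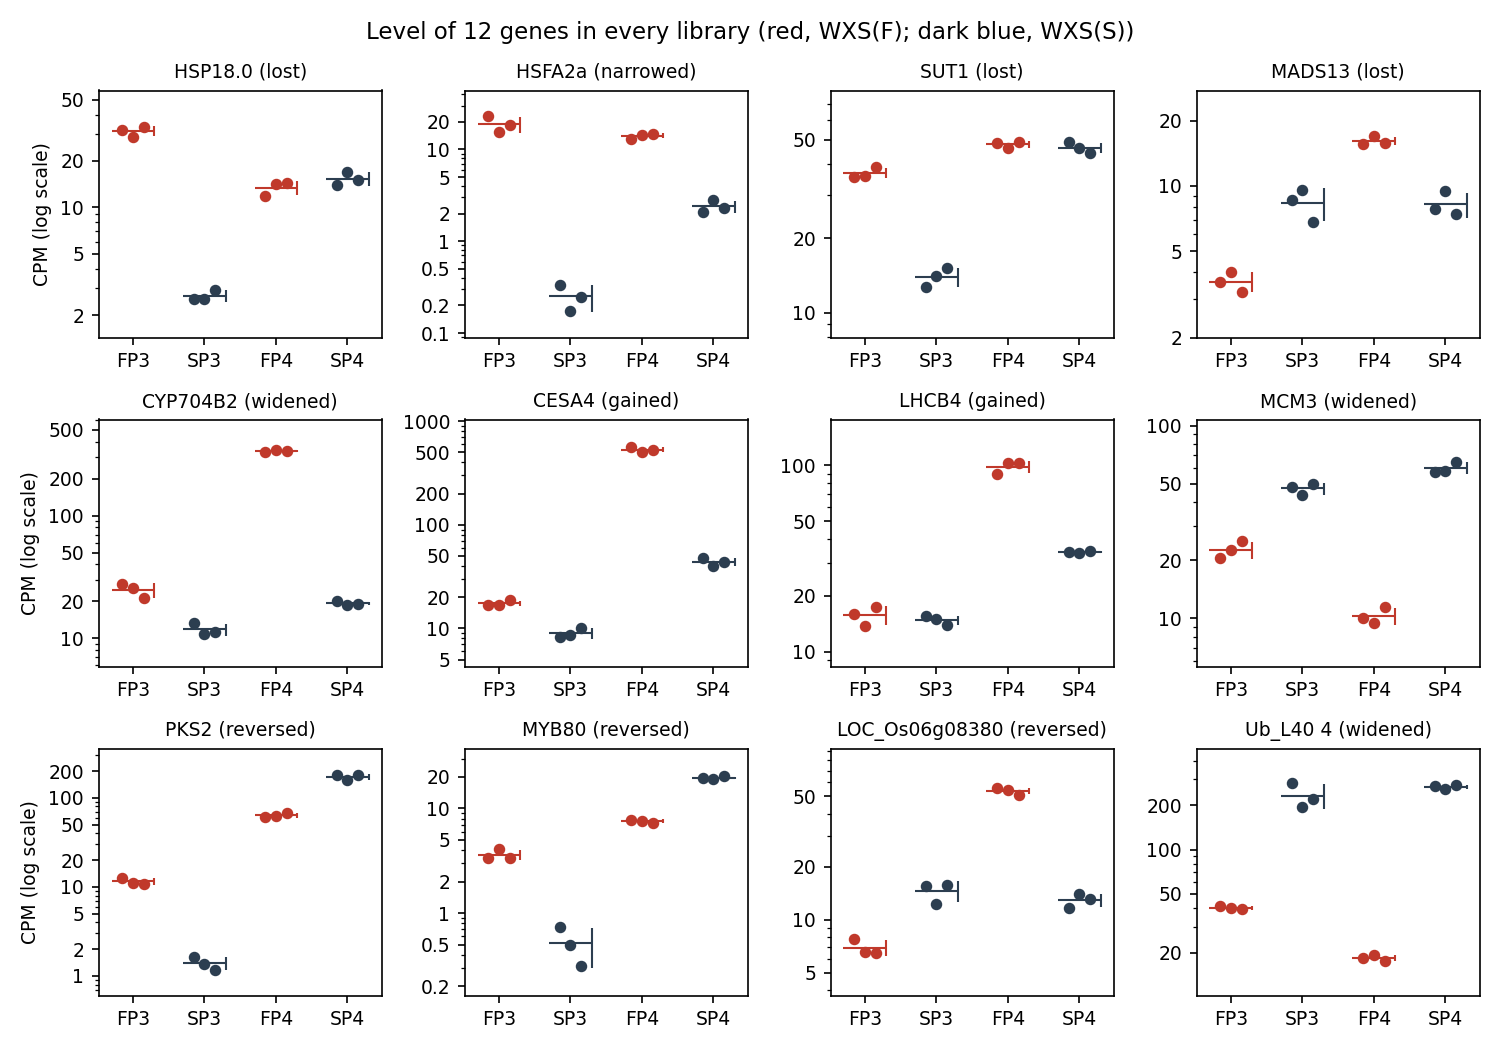
Level in CPM on a log scale (vertical) of 12 genes in the groups FP3, SP3, FP4 and SP4 (horizontal), with 1 point a library, a horizontal line at the mean and a vertical line of 1 SD on each side, with WXS(F) in red and WXS(S) in dark blue. HSP18.0 and SUT1 overlap between the types at P4 while SP3 is low, CYP704B2 and CESA4 peak in FP4, and PKS2 and MYB80 swap their order between P3 and P4.

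Floral MADS factors specify the identity of floral organs. Of 17 tested, 5 had a higher and none a lower interaction, or 29.4% called, against 9.87% of all genes tested. The median was 0.63, and 15 of the 17 interactions were above 0. At P3, 7 were lower in FP3 than in SP3, and at P4 none was lower and 1 was higher. MADS13 (LOC_Os12g10540), a class D ovule identity gene, had 3.63, 3.99 and 3.25 CPM in FP3, against 8.62, 9.62 and 6.81 CPM in SP3, and 15.7, 16.9 and 15.8 CPM in FP4, against 7.799, 9.46 and 7.396 CPM in SP4. FP3 was the low group and FP4 the high one, while both sterile groups lay in between, and the interaction was 2.18 (SE 0.216, adjusted p = 7e-05, edgeR). MADS58 (LOC_Os05g11414), a class C carpel and stamen gene, had 9.77, 7.92 and 10.9 CPM in FP3, against 30.4, 23.1 and 18.8 CPM in SP3, and 21.8, 20.98 and 20.8 CPM in FP4, against 17.9, 18.2 and 18.7 CPM in SP4, an interaction of 1.56 (SE 0.2304, adjusted p = 0.001, edgeR). MADS17 (LOC_Os04g49150), a gene of floral organ and meristem identity, had 30.4, 31.3 and 31.8 CPM in FP3, against 84.5, 73.2 and 59.6 CPM in SP3, and 39.7, 42.04 and 46.4 CPM in FP4, against 36.9, 36.2 and 38.1 CPM in SP4, an interaction of 1.42 (SE 0.158, adjusted p = 0.000155, edgeR). In MADS58 and MADS17 all SP3 libraries lay above all FP3 libraries, and at P4 the log2 fold changes of 0.21 and 0.20 were not called.

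MADS1 (LOC_Os03g11614), a floret identity gene, had 196, 212 and 206 CPM in FP3, against 543, 442 and 349 CPM in SP3, and 347, 330.1 and 349 CPM in FP4, against 327, 333 and 318 CPM in SP4. Its interaction was 1.19 (SE 0.176, adjusted p = 0.00102, edgeR) and fell to 0.95, under the fold threshold, without SP3 replicate 1 (adjusted p = 0.000294). MADS3 (LOC_Os01g10504), a class C stamen gene, had an interaction of 1.18 (SE 0.192, adjusted p = 0.00186, edgeR), which was 0.99 without SP3 replicate 1 (adjusted p = 0.00347) and was not called by limma on log2(FPKM + 1) (0.78, adjusted p = 0.0725) or on log2(FPKM + 0.1) (0.82, adjusted p = 0.0768). SP3 replicate 1 had the highest value of the group in both genes.

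Of 34 nuclear photosynthesis genes tested from a list of 36, 13 had a higher and 1 a lower interaction. That was 41.2% of those tested, against 9.87% of all genes tested. The median was 0.85, and 31 of the 34 interactions were above 0. At P3, 1 was higher and 6 were lower in FP3 than in SP3, and at P4, 6 were higher and 1 was lower in FP4 than in SP4. Library totals without TMM, which moved the median of all genes from -0.02 to -0.15, called 10 of the 34 higher and 1 lower. The list's sum was 386 to 405 FPKM in FP3, against 389 to 602 FPKM in SP3, and 1543 to 1646 FPKM in FP4, against 985 to 1082 FPKM in SP4.

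LHCB4 (LOC_Os07g37240), an antenna protein of photosystem II, had 15.99, 13.8 and 17.4 CPM in FP3, against 15.5, 14.9 and 13.8 CPM in SP3, and 89.6, 103 and 103 CPM in FP4, against 34.3, 33.7 and 34.7 CPM in SP4. The types overlapped at P3. FP4 was the highest group, SP4 also lay above both P3 groups, and the interaction was 1.43 (SE 0.132, adjusted p = 4.01e-05, edgeR). LHCB2 (LOC_Os03g39610), of the main light-harvesting complex, had 42.1, 40.7 and 42.8 CPM in FP3, against 113, 95.01 and 89.5 CPM in SP3, and 177, 199 and 184 CPM in FP4, against 159, 166 and 172 CPM in SP4. FP3 was the low group, the log2 fold change of 0.17 at P4 was not called, and the interaction was 1.42 (SE 0.119, adjusted p = 2.12e-05, edgeR). PSAO (LOC_Os04g33830), a subunit of photosystem I, had 21.9, 21.5 and 21.1 CPM in FP3, against 32.3, 28.7 and 31.3 CPM in SP3, and 80.9, 88.8 and 86.99 CPM in FP4, against 51.7, 51.3 and 56.02 CPM in SP4, and neither stage difference passed the fold threshold while the interaction did, at 1.21 (SE 0.0972, adjusted p = 1.66e-05, edgeR). LOC_Os09g17740, LOC_Os08g33820 and LOC_Os07g05480 of the list had interactions of 1.32, 1.10 and 1.06. The value of LOC_Os07g05480 was under the threshold of 1 without SP3 replicate 1 (0.97) and without FP4 replicate 2 (0.99), and without TMM it was 0.93 and that of LOC_Os08g33820 was 0.97.

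Of 13 DNA replication genes tested, 8 were lower in FP3 than in SP3 and 10 were lower in FP4 than in SP4, and none was higher. Over all genes tested 6.91% were lower at P3 and 6.62% at P4. The interaction was lower in 4, higher in none and below 0 in 12, with a median of -0.62. The share called was 30.8%, against 9.87% of all genes tested. MCM3 (LOC_Os05g39850), a subunit of the replicative helicase, had 20.5, 22.5 and 25.1 CPM in FP3, against 47.9, 43.5 and 49.98 CPM in SP3, and 9.98, 9.48 and 11.5 CPM in FP4, against 57.4, 58.3 and 65.01 CPM in SP4. FP4 was the low group, and the interaction was -1.49 (SE 0.146, adjusted p = 6.36e-05, edgeR). PCNA (LOC_Os02g56130), the sliding clamp, had 31.4, 30.4 and 29.6 CPM in FP3, against 75.2, 62.1 and 57.2 CPM in SP3, and 21.3, 19.6 and 21.6 CPM in FP4, against 89.8, 88.7 and 89.7 CPM in SP4, an interaction of -1.01 (SE 0.1302, adjusted p = 0.000406, edgeR). ORC1 (LOC_Os06g08790), of the origin recognition complex, had 15.4, 14.5 and 14.02 CPM in FP3, against 36.05, 36.9 and 29.7 CPM in SP3, and 4.59, 4.52 and 4.79 CPM in FP4, against 21.99, 22.4 and 23.5 CPM in SP4, an interaction of -1.06 (SE 0.134, adjusted p = 0.000369, edgeR). The interactions of PCNA and ORC1 were close to the fold threshold and went under it without FP3 replicate 1 (-0.97 for PCNA and -0.9987 for ORC1) and without SP3 replicate 3 (-0.90 and -0.94), and for PCNA also without SP3 replicate 2 (-0.99) and without SP4 replicate 1 (-0.99). PCNA was under it as well by DESeq2 (-0.98), with at least 10 counts in every library (-0.98) and by limma on log2(FPKM + 1) (-0.96). ORC1 was not called by limma on log2(FPKM + 1) (-0.49, adjusted p = 0.11) or on log2(FPKM + 0.1) (-0.92, adjusted p = 0.0193). ORC3 (LOC_Os10g26280) of the same complex had an interaction of -1.19 (SE 0.259, adjusted p = 0.00899, edgeR), which was -0.48 by limma on log2(FPKM + 1) and not called.

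Of 22 meiosis genes, 11 were lower in FP3 than in SP3 and 8 were lower in FP4 than in SP4, and none was higher at either stage. Their interaction was higher in 1 and lower in 3, with a median of -0.16. The share called was 18.2%, against 9.87% of all genes tested. COM1 (LOC_Os06g41050), a factor of meiotic break processing, had 0.971, 1.27 and 0.983 CPM in FP3, against 2.17, 2.14 and 3.11 CPM in SP3, and 0.444, 0.432 and 0.431 CPM in FP4, against 6.03, 7.09 and 7.205 CPM in SP4. SP4 was the high group, the levels were low throughout, and the interaction was -2.75 (SE 0.296, adjusted p = 0.000123, edgeR). ZEP1 (LOC_Os04g37960), the central element of the synaptonemal complex, had 14.6, 15.6 and 12.6 CPM in FP3, against 12.5, 13.998 and 10.9 CPM in SP3, and 7.002, 6.25 and 6.99 CPM in FP4, against 16.9, 14.1 and 14.6 CPM in SP4. The types overlapped at P3, FP4 alone was low, and the interaction was -1.37 (SE 0.181, adjusted p = 0.000494, edgeR), against -0.82 by limma on log2(FPKM + 1), under the fold threshold. LOC_Os10g26560 of the list had 8.24, 9.08 and 7.72 CPM in FP3, against 17.9, 14.5 and 20.2 CPM in SP3, and 3.06, 3.71 and 3.81 CPM in FP4, against 28.3, 24.6 and 26.3 CPM in SP4 and an interaction of -1.83 (SE 0.196, adjusted p = 0.000118, edgeR). LOC_Os12g38460 had an interaction of 1.06, which was 0.93 without TMM, 0.84 by limma on log2(FPKM + 1), 0.99 without FP3 replicate 3, 0.98 without FP4 replicate 3 and 0.93 without SP3 replicate 1.

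Among 8 mitotic cyclin and kinase genes no interaction was called by edgeR, none at an unadjusted p below 0.05 with a 2-fold change and none by DESeq2. In these genes 4 were lower in FP3 than in SP3 and 5 lower in FP4 than in SP4, against 6.91% and 6.62% of all genes tested. Their median interaction was -0.10. The 3 counts of called interactions were also 0 for 8 circadian clock genes, with a median of 0.25, and for 4 genes of the reproductive small RNA pathway, with a median of 0.13. Of 5 early anther cell fate genes none was called by edgeR or DESeq2, and 1 was lower at an unadjusted p below 0.05 with a 2-fold change. Over all genes tested edgeR called 9.87%, so no call in lists of 4 to 8 genes lies near that share. With an adjusted p below 0.05 and no fold threshold, 3 clock genes, 1 small RNA pathway gene and 1 early anther gene had a higher interaction, and 1 cyclin or kinase gene had a lower one. At the full threshold 1 early anther gene was lower without FP3 replicate 1, and 1 cyclin or kinase gene was lower without SP3 replicate 3. The pollen MADS list had 1 gene with enough reads of 3, which was not called by edgeR and was lower by DESeq2 and at the unadjusted p.

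Of 21 sugar and starch genes tested, 1 had a higher and 4 a lower interaction, with a median of -0.25, so that 23.8% were called, against 9.87% of all genes tested. SUT1 (LOC_Os03g07480), a sucrose transporter, had 35.5, 35.9 and 38.8 CPM in FP3, against 12.7, 14.04 and 15.1 CPM in SP3, and 48.4, 46.3 and 49.02 CPM in FP4, against 48.8, 46.2 and 44.3 CPM in SP4. SP3 alone was low, the types overlapped at P4, and the interaction was -1.35 (SE 0.111, adjusted p = 1.92e-05, edgeR). SSIIa (LOC_Os06g12450), a soluble starch synthase, had 0.832, 1.16 and 1.26 CPM in FP3, against 0.694, 0.561 and 0.684 CPM in SP3, and 1.38, 1.59 and 1.25 CPM in FP4, against 12.9, 10.9 and 13.3 CPM in SP4. SP4 alone was high, and the interaction was -3.88 (SE 0.286, adjusted p = 9.21e-06, edgeR). AGPL4 (LOC_Os07g13980), a large subunit of ADP-glucose pyrophosphorylase, had 15.7, 16.8 and 17.1 CPM in FP3, against 18.3, 17.6 and 12.9 CPM in SP3, and 7.08, 6.21 and 6.24 CPM in FP4, against 15.2, 14.1 and 15.03 CPM in SP4, with FP4 alone low and an interaction of -1.21 (SE 0.184, adjusted p = 0.00117, edgeR), which was -0.87 by limma on log2(FPKM + 1), under the fold threshold. LOC_Os04g33720 was under 1 CPM in every library and had an interaction of -5.01 (SE 0.828, adjusted p = 0.00196, edgeR), against -0.49 by limma on log2(FPKM + 1), where it was not called. CSA (LOC_Os01g16810), a MYB factor that controls sugar supply to the anther, had an interaction of 1.49 (SE 0.382, adjusted p = 0.0198, edgeR). The adjusted p of CSA was 0.0533 without FP3 replicate 3, 0.0532 without FP4 replicate 3 and 0.0526 without SP4 replicate 3, with values from 1.31 to 1.44, and by limma on log2(FPKM + 1) it was 0.0522 with a value of 0.86.

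Genes of the cold and drought DREB list, transcription factors of stress responses, differed from one another. Of 9 tested, 2 had a higher and 1 a lower interaction, with a median of -0.26. The share called was 33.3%, against 9.87% of all genes tested. LOC_Os06g03670 had 3.47, 3.37 and 3.07 CPM in FP3, against 2.54, 5.56 and 2.21 CPM in SP3, and 14.2, 16.5 and 17.3 CPM in FP4, against 0.842, 1.27 and 0.835 CPM in SP4. FP4 was the high group, and the interaction was 4.09 (SE 0.459, adjusted p = 0.000167, edgeR). LOC_Os09g35030 had 13.02, 12.6 and 13.1 CPM in FP3, against 16.9, 16.3 and 11.6 CPM in SP3, and 1.63, 1.27 and 1.29 CPM in FP4, against 12.6, 11.2 and 15.5 CPM in SP4, with FP4 low and an interaction of -3.01 (SE 0.2504, adjusted p = 2.04e-05, edgeR). LOC_Os02g45450 was lower in WXS(F) at P3 and higher at P4, with 0.713, 1.48 and 0.772 CPM in FP3, against 3.996, 3.41 and 3.202 CPM in SP3, and 1.06, 0.727 and 1.07 CPM in FP4, against 0.252, 0.113 and 0.286 CPM in SP4 and an interaction of 3.94 (SE 0.541, adjusted p = 0.00062, edgeR).

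The study had linked 22 transcription factor genes to motifs in open chromatin and kept them for an expression difference of at least 2-fold in its RNA-seq. Of these 22 genes, 2 had a higher and 3 a lower interaction. That was 22.7% of those tested, against 9.87% of all genes tested, and the median was 0.30. The study chose these motif-linked genes on the same samples, and the other lists were chosen with earlier results of these data known. None of the list counts is thus independent evidence. ERF141 (LOC_Os02g42585), an ethylene response factor, had 20.2, 18.8 and 18.3 CPM in FP3, against 4.25, 6.02 and 4.57 CPM in SP3, and 24.999, 28.1 and 27.01 CPM in FP4, against 2.24, 1.86 and 2.22 CPM in SP4. SP4 was the low group, and the interaction was 1.71 (SE 0.195, adjusted p = 0.00018, edgeR). The study counts ERF141 among the factors enriched in SP3, from motifs in open chromatin and the expression difference. In these counts its RNA was higher in FP3 than in SP3, with a log2 fold change of 1.95. The cause of this disagreement was not tested. ERF83 (LOC_Os03g64260) had 4.95, 5.04 and 5.27 CPM in FP3, against 3.34, 2.59 and 2.95 CPM in SP3, and 3.698, 3.71 and 3.38 CPM in FP4, against 9.82, 7.79 and 10.95 CPM in SP4. It was higher in FP3 than in SP3 at P3, short of the fold threshold, and lower in FP4 than in SP4, with an interaction of -2.18 (SE 0.226, adjusted p = 9.38e-05, edgeR). HOX6 (LOC_Os09g35910), a homeodomain factor, had an interaction of -1.12 (SE 0.194, adjusted p = 0.00255, edgeR), which was -0.94 without SP3 replicate 3 and -0.95 by limma on log2(FPKM + 1).

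LBD (LOC_Os01g60960), a LOB domain factor, had log2 fold changes of 3.70 at P3 and 2.55 at P4 and an interaction of -1.15 (SE 0.323, adjusted p = 0.0303, edgeR). Its call was lost in 6 fits without a library, without FP3 replicate 1 (adjusted p = 0.0851), FP3 replicate 3 (0.0645), FP4 replicate 1 (0.0774), FP4 replicate 3 (0.0728) and SP4 replicate 1 (0.0794), and without SP3 replicate 3 by the fold threshold (-0.95). It was also lost without the filter on low counts (adjusted p = 0.0632) and by limma on log2(FPKM + 1) (-0.15) and on log2(FPKM + 0.1) (-0.73). ERF134 (LOC_Os02g09650) had 0.0198, 0.0215 and 0.0234 CPM in FP3, against 1.85, 6.902 and 4.23 CPM in SP3, and 0.0247, 4.64 and 4.24 CPM in FP4, against 1.88, 0.0282 and 6.04 CPM in SP4. Single replicates of FP4 and SP4 were near 0 while the others were not, and its interaction of 7.63 (SE 2.38, adjusted p = 0.0455, edgeR) was lost in 8 of the fits without a library, with adjusted p-values from 0.057 without SP3 replicate 1 to 0.1035 without FP3 replicate 1. It was lost as well with a replicate block (7.16, adjusted p = 0.0806) and by limma on log2(FPKM + 1) (1.67, adjusted p = 0.152) and on log2(FPKM + 0.1) (4.52, adjusted p = 0.117). Of 354 genes tested with such uneven replicates (at most 1 count in a replicate and at least 100 in another of the group), 5 were called.

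The 3 Ub_L40 genes all had a lower interaction, with different groups standing apart, and tms5 was not called. tms5 (LOC_Os02g12290) had 4.97, 5.06 and 4.82 CPM in FP3, against 4.71, 6.02 and 5.19 CPM in SP3, and 3.67, 4.25 and 3.77 CPM in FP4, against 3.82, 4.29 and 4.03 CPM in SP4. The types overlapped at both stages, and the interaction was 0.05 (SE 0.201, adjusted p = 0.911, edgeR). Ub_L40 4 (LOC_Os09g31031) had 41.4, 39.8 and 39.5 CPM in FP3, against 282, 194 and 221 CPM in SP3, and 18.3, 19.3 and 17.6 CPM in FP4, against 269, 257 and 274 CPM in SP4. WXS(F) was lower at both stages, with the FP4 libraries below those of FP3, and the interaction was -1.33 (SE 0.158, adjusted p = 0.000248, edgeR). Ub_L40 2 (LOC_Os03g15370) had 2.16, 2.02 and 2.64 CPM in FP3, against 3.45, 1.75 and 4.48 CPM in SP3, and 3.21, 2.75 and 2.84 CPM in FP4, against 13.9, 13.9 and 12.7 CPM in SP4. The types overlapped at P3, SP4 alone was high, and the interaction was -1.70 (SE 0.3904, adjusted p = 0.0118, edgeR). Ub_L40 1 (LOC_Os09g27930) had 1.94, 2.38 and 1.45 CPM in FP3, against 0.126, 0.367 and 0 CPM in SP3, and 1.87, 1.93 and 1.95 CPM in FP4, against 4.46, 5.99 and 4.84 CPM in SP4. It was higher in WXS(F) at P3, and its log2 fold change of -1.41 at P4 was not called (adjusted p = 0.0658, edgeR). Its interaction was -4.86 (SE 0.85998, adjusted p = 0.0029, edgeR). The study reported significantly higher expression of these Ub_L40 genes in WXS(S) than in WXS(F), with the same patterns by qRT-PCR and RNA-seq. Its text names no stage for that comparison. In the counts used here each of these genes was lower in FP4 than in SP4. At P3, Ub_L40 4 was also lower in WXS(F), Ub_L40 2 was not called and Ub_L40 1 went the opposite way. The cause of this disagreement was not tested.

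All Ub_L40 genes encode ubiquitin, a highly conserved protein, fused to a ribosomal protein. How reads that match several of them were shared is not given in the sources used here, so each value is uncertain to that extent. The study's qPCR primers for Ub_L40 2 and Ub_L40 4 are printed to show how alike the primers are, and the sequences of the genes were not compared here. The primers have the same forward sequence and differ in the reverse sequence by 1 base, G1C from Ub_L40 2 to Ub_L40 4. Positions are counted from 1 at the 5′ end of the primer, and that base is in capitals.
Ub_L40 2 forward: gatccaggacaaggaaggtatc
Ub_L40 4 forward: gatccaggacaaggaaggtatc
Ub_L40 2 reverse: Ggactccttctggatgttgtag
Ub_L40 4 reverse: Cgactccttctggatgttgtag

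**Figure D4:**
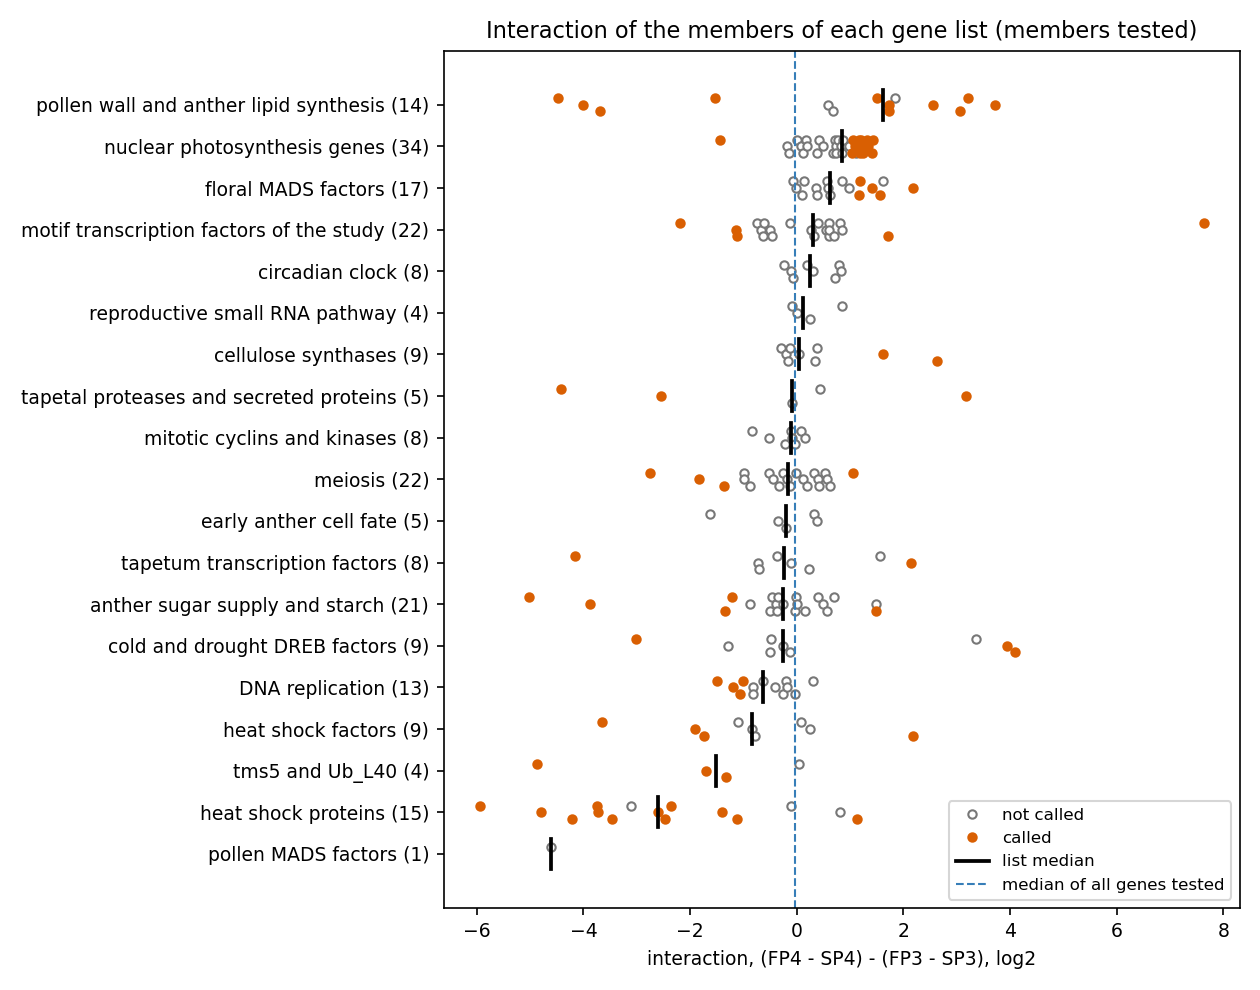
Interaction on the log2 scale (horizontal) of each gene tested in the 19 gene lists (vertical, with the number tested in brackets), where filled points were called, open points were not, black bars are list medians and the dashed line is the median of all genes tested, -0.02. Heat shock proteins lie mostly to the left with a median of -2.60, and pollen wall genes, with a median of 1.62, lie on both sides.

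Outside the lists, single genes at a mean of at least 5 CPM were taken as examples of each class. In the gained and reversed classes these had the smallest p of the class, and in the lost classes the smallest p among genes with a product description at hand, which were mostly loci of chromosome 1. Among the gained higher genes, LOC_Os06g42860 had 4.14, 3.88 and 3.95 CPM in FP3, against 3.15, 1.79 and 2.33 CPM in SP3, and 88.7, 89.96 and 93.7 CPM in FP4, against 0.786, 0.734 and 1.03 CPM in SP4. FP4 alone was high, and the interaction was 6.01 (SE 0.267, adjusted p = 3.43e-07, edgeR). LOC_Os01g03660 had an interaction of 2.59, and LOC_Os04g53760, annotated to the cell cycle, one of 2.04, both with FP4 as the high group. Among the gained lower genes, LOC_Os08g43240 had 38.1, 32.7 and 35.4 CPM in FP3, against 73.6, 62.1 and 54.6 CPM in SP3, and 62.005, 63.5 and 59.4 CPM in FP4, against 1232, 1257 and 1211 CPM in SP4. SP4 alone was high, and the interaction was -3.48 (SE 0.144, adjusted p = 2.49e-07, edgeR). LOC_Os03g14140 and LOC_Os04g55850, the second annotated to catabolic processes, were high in SP4 with interactions of -2.43 and -2.95. LOC_Os03g19270 was low in FP4, with an interaction of -3.55.

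Among the lost higher genes, LOC_Os01g50940, annotated as an ABA-inducible bHLH factor, had 71.95, 71.3 and 79.8 CPM in FP3, against 15.7, 18.2 and 13.96 CPM in SP3, and 20.8, 23.3 and 20.8 CPM in FP4, against 38.2, 39.4 and 42.4 CPM in SP4. FP3 was the high group, with SP4 next, and the interaction was -3.10 (SE 0.147, adjusted p = 5.48e-07, edgeR). LOC_Os01g64860, a subtilisin-like protease, and LOC_Os01g63480, an acetyltransferase, had SP3 as the low group, with interactions of -2.88 and -2.25. Among the lost lower genes, LOC_Os01g56360, an O-acyltransferase of wax ester synthesis, had 7.75, 9.698 and 9.59 CPM in FP3, against 24.9, 24.8 and 15.1 CPM in SP3, and 5.94, 7.41 and 7.65 CPM in FP4, against 5.05, 6.72 and 4.18 CPM in SP4. SP3 was the high group, and the interaction was 1.66 (SE 0.31997, adjusted p = 0.00468, edgeR). LOC_Os01g25240, annotated as a polynucleotide kinase, had SP3 as the high group and an interaction of 1.15. LOC_Os01g52680, a MADS-box factor, had an interaction of 1.09, which was under 1 without FP3 replicate 2 (0.9991), SP3 replicate 2 (0.99), FP4 replicate 3 (0.93) and SP4 replicate 2 (0.9976). LOC_Os01g09790, an IQ domain protein, had an interaction of 1.54, with an adjusted p of 0.0502 without FP3 replicate 2 and 0.052 without FP4 replicate 2.

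Of the genes reversed to higher, LOC_Os06g08380, annotated to the cell cycle and pollination, had 7.81, 6.54 and 6.48 CPM in FP3, against 15.6, 12.2 and 15.8 CPM in SP3, and 55.6, 54.1 and 51.2 CPM in FP4, against 11.7, 13.9 and 13.1 CPM in SP4. FP3 lay below SP3 and FP4 above SP4 without overlap, and the interaction was 3.12 (SE 0.173, adjusted p = 1.56e-06, edgeR). LOC_Os04g48400 had 17.6, 15.9 and 18.5 CPM in FP3, against 46.4, 52.1 and 34.3 CPM in SP3, and 125, 129 and 136 CPM in FP4, against 51.98, 54.6 and 55.4 CPM in SP4, an interaction of 2.62 (SE 0.182, adjusted p = 6.14e-06, edgeR). LOC_Os10g35460, annotated to cell growth, and LOC_Os04g15920 had interactions of 2.85 and 2.72, both with FP4 as the high group. In each of these 4 genes all FP4 libraries lay above all FP3 libraries. The 4 were taken by their interaction p from a class called higher at P4, and the share of all genes tested with such a separation was not counted.

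Of the genes reversed to lower, LOC_Os03g24130 had 4.42, 3.95 and 3.95 CPM in FP3, against 0.883, 0.841 and 1.06 CPM in SP3, and 8.31, 10.2 and 10.9 CPM in FP4, against 88.2, 81.5 and 97.6 CPM in SP4. SP4 was the high group, and the interaction was -5.34 (SE 0.187, adjusted p = 9.05e-08, edgeR). LOC_Os01g21120, an ethylene-responsive transcription factor, had 53.2, 50.04 and 51.5 CPM in FP3, against 21.3, 24.7 and 22.97 CPM in SP3, and 15.6, 15.1 and 17.3 CPM in FP4, against 32.9, 37.2 and 36.02 CPM in SP4, with FP3 high and an interaction of -2.31 (SE 0.119, adjusted p = 9.57e-07, edgeR). LOC_Os01g65830, an acyl carrier protein desaturase, had 10.005, 10.4 and 10.8 CPM in FP3, against 4.58, 4.29 and 5.69 CPM in SP3, and 2.24, 2.501 and 2.201 CPM in FP4, against 16.2, 13.5 and 16.2 CPM in SP4, with FP4 low and an interaction of -3.82 (SE 0.198, adjusted p = 9.64e-07, edgeR). Reversal was thus reached through a different group in each of these genes.

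By kind of gene model, 10% of the 24833 MSU7 loci tested were called, 808 in the higher and 1682 in the lower direction, and 7.5% of the 1520 tested genes that the authors added to the annotation, 51 and 63. In 213 of the 2606 called genes a group had 0 counts in all of its libraries, so that the fitted fold change there is not a bound. A mean of at least 5 CPM over the 12 libraries was reached by 1419 of the called genes.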

How the data were processed

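RNA-seq libraries were assigned to FP3, SP3, FP4 and SP4 from the sample labels, with 3 biological replicates per group and 0 table columns left out. The authors aligned strand-specific paired-end reads to the MSU7 genome with HISAT2 and estimated reads per gene with StringTie (versions not given in the sources used here). The deposited counts are whole numbers, not normalized, and the deposited FPKM values are scaled by the authors to gene length and library size. Counts were analysed as deposited with edgeR 4.0.16 (R 4.3.3) using filterByExpr, TMM and glmQLFit on 1 model of the 4 group means. The contrast (FP4 - SP4) - (FP3 - SP3) and the stage contrasts were tested with glmQLFTest over all genes and called at a Benjamini-Hochberg adjusted p below 0.05 and an absolute log2 value above 1. The standard error is the log2 value divided by the square root of F. CPM values are scaled by library total times the TMM factor, and log2 CPM used a prior count of 2. Library totals of 30577833 to 51193158 counts set the precision, and 3 libraries against 3 allow no exact permutation p below 0.1. Alternatives were DESeq2 1.42.0, limma 3.58.1 on log2(FPKM + 1) and log2(FPKM + 0.1), library totals without TMM, other filters, thresholds, a replicate block and each library left out. The script was checked on simulated data.

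Named genes were tms5 and Ub_L40, up to 6 called genes per list by smallest p, and 4 genes per class of smallest p whose mean was 5 CPM or more, with a product description where 4 had one, which was so for the lost classes (descriptions were at hand for 489 loci of chromosome 1 and 37 of chromosome 2). Members and lists were chosen with earlier results of these data known. Of the 232 loci listed, 226 were tested. The lists rest on general knowledge of MSU7 loci, and symbols are printed for loci that the study's tables annotate. The MSU7 annotation was not used here. GO tables of the study were incomplete here, so no overlap was tested. Figures were drawn with matplotlib.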

Additional observations from a re-analysis of the deposited data

Results flagged for a closer look

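The test of the difference between the stage effects itself picked out 860 genes in which WXS(F) stood relatively higher at P4 and 1746 in which it stood relatively lower. The sign of the difference between the types was opposite at the stages, and called at each, in 44 genes that turned to higher and 45 that turned to lower in WXS(F). Among the named genes, the interactions of this kind towards lower were -5.94 in HSP23.2 (LOC_Os04g36750), -5.34 in LOC_Os03g24130, -4.48 in PKS2 (LOC_Os07g22850), -4.16 in MYB80 (LOC_Os04g39470), -3.82 in LOC_Os01g65830 and -2.31 in LOC_Os01g21120. Those towards higher were 3.94 in LOC_Os02g45450, 3.12 in LOC_Os06g08380, 2.85 in LOC_Os10g35460, 2.72 in LOC_Os04g15920 and 2.62 in LOC_Os04g48400. Groups of 3 libraries were too small for a test of a single far library.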

How the results depend on the processing

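No gene called here in the edgeR fit was called in the opposite direction by any alternative on counts, and limma called 11 of them the opposite way with log2(FPKM + 1) and 7 with log2(FPKM + 0.1). DESeq2 called 1218 genes higher and 1992 lower, of which 854 and 1682 were also called by edgeR. The replicate block gave 691 and 1634 genes, of which 677 and 1581 were the same genes. Same-numbered libraries of different groups did not deviate together (18 pairs, r from -0.06 to 0.04), so no pairing by number was seen. What the numbers stand for is not given in the labels, and a pairing is not excluded by these values.

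The counts that moved by over 1.5 times were as follows. With at least 10 counts in every library, fewer genes were tested, and there were 133 lost lower, 22 reversed to higher and 27 reversed to lower genes. By limma on log2(FPKM + 1), there were 735 genes with a lower interaction, 182 gained lower, 245 lost higher, 93 lost lower, 4 reversed to higher and 12 reversed to lower. By limma on log2(FPKM + 0.1), there were 1693 genes with a higher interaction, 743 gained higher and 560 lost lower. The cause of these limma differences was not tested. With an adjusted p alone and no fold threshold, 2205 and 3018 interactions were called, with 619 gained higher, 547 gained lower, 857 lost higher, 755 lost lower, 214 reversed to higher and 289 reversed to lower. With an unadjusted p, there were 1436 higher interactions, 584 gained higher, 348 lost lower and 80 reversed to higher genes. With each library left out in turn, lost lower genes numbered from 139 (without FP4 replicate 2) to 363 (without SP3 replicate 3), higher interactions from 603 (without FP4 replicate 2) to 1217 (without SP3 replicate 3) and lower ones from 1457 to 2260.

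Of the 80 named genes, none reversed under any alternative, 20 lost their call under at least 1 and 13 did so when a library was left out. SP3 replicate 3 had the fewest counts.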
